A study of Mus musculus with 24 samples.

Results

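The genes described here are 42 interferon-stimulated genes, the transcripts that a cell makes in response to interferon. They were chosen by name with earlier results of these data known, with no threshold on a measured value, and were found by gene identifier among the 48795 identifiers of both deposited expression tables. All 42 were found in each table. They comprise 4 transcription factors of the pathway (Irf1, Irf7, Irf9, Stat2), 5 sensors of foreign or displaced nucleic acid, 5 members of the oligoadenylate synthetase (Oas) family, 3 Ifit genes, 8 genes of ISG15 conjugation, ubiquitin ligation and ADP-ribosylation, 11 antiviral effectors, and 6 guanylate-binding proteins, immunity-related GTPases and chemokines.

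Type I and type III interferons bind receptors whose Jak1 and Tyk2 kinases activate a complex that contains Stat2 and Irf9. This complex binds the interferon-stimulated response element (ISRE) in the promoters of the target genes, while interferon gamma acts through gamma-activated sites (GAS). In the lung the programme is best known as the defence of epithelial cells and fibroblasts against respiratory viruses, and it can also be set off by a cell's own DNA or RNA when these reach the cytosol.

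All mice were Balb/c females aged 8 weeks, and lungs were collected on day 7. Sham mice went through a mock irradiation and received a control IgG. Irradiated mice had 13 Gy aimed at the lungs and the control IgG. Depleted mice had the same dose and, every day, anti-Ly6G, an antibody that removes neutrophils through their surface antigen Ly6G. No group received the Ly6G antibody without irradiation, so every effect of the antibody was measured in irradiated lungs. EpCAM-positive (epithelial) and EpCAM-negative (mesenchymal) cells lacking CD45, CD31 and Ter119 were sorted. Each of the 6 groups has 4 libraries, from 4 mice per the design text, and there are 24 libraries in all. The gate in the protocol text of the labels reads CD45 in the position where the cell type entries have CD31.

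Reads recovered per library ranged from 8159062 to 13373329 in the epithelium and from 7366672 to 11408083 in the mesenchyme. Depth differed between the groups. Epithelial depleted libraries had 8159062 to 9267632 reads, fewer than every sham (9776113 to 11710964) and irradiated one (10884703 to 13373329). Mesenchymal sham, irradiated and depleted libraries had 8951233 to 11408083, 7366672 to 8989716 and 8960347 to 9932700. A count of 0 allowed up to 3 reads, a normalised count of 2.36 to 3.81 in epithelial and 2.48 to 3.66 in mesenchymal libraries, and these limits cover counting error only. Each table has a scale of its own, so levels are set side by side within a table only. Epithelial sham libraries had a mean of 1151 for Epcam but also 1343 for Pdgfra, a fibroblast receptor, while mesenchymal ones had 22859 for Pdgfra and 8.55 for Epcam. Cdkn1a, the p53 target used to check the irradiation labels, rose in the epithelium from a sham mean of 520 to 3321 (irradiated) and 3972 (depleted), and in the mesenchyme from 618 to 2659 and 3261. Sham libraries did not overlap the others.

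Promoters of a few members that hold the ISRE core are shown first. The search covered the 250 bases before the RefSeq start (GRCm38.p6) on both strands. It looked for the ISRE core GAAANNGAAA and, for GAS, only for the letters TTCCNGGAA. GAS sites with other letters were not counted. An entry existed for 31 of the 42 members. The ISRE core occurred in 13 of them (41.9%), against 936 of 27025 genes with an entry (3.46%). The searched GAS letters occurred in 2 (6.45%, Bst2 and Ifit2) against 295 (1.09%). The promoters below are those of the called members with an ISRE core (Bst2, Cxcl10, Gbp2, Stat2 and Trim30a) and, for contrast, of Ifit1 and Isg15, which were not called in any comparison. Capitals mark the ISRE core on either strand (read on the opposite strand as TTTCNNTTTC), and each sequence is written 5′ to 3′ on the strand of its gene.
Bst2 (chr8:71537577-71537612, minus strand): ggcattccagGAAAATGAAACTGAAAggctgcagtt
Cxcl10 (chr5:92349083-92349112, minus strand): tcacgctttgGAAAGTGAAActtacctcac
Gbp2 (chr3:142620594-142620623, plus strand): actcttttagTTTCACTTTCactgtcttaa
Stat2 (chr10:128270266-128270295, plus strand): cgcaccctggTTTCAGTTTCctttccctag
Trim30a (chr7:104465210-104465239, minus strand): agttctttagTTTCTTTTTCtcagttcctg
Ifit1 (chr19:34640775-34640823, plus strand): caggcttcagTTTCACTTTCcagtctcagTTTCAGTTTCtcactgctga
Isg15 (chr4:156200865-156200906, minus strand): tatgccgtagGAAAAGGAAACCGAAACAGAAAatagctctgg

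In Bst2 the marked stretch holds 2 overlapping matches, and in Isg15 it holds 3. Ifit1 carries 2 separate matches. At another RefSeq start of Trim30a the window held no ISRE core. In Gbp2 the GENCODE gene model begins in the lower-case bases just before the marked core, upstream of the RefSeq start used here. Of the 13 members called in any comparison 9 had a promoter entry, and 5 of these held the core. Of the 29 members not called, 22 had an entry and 8 held the core. Ifit2, whose fall is described below, had no ISRE core in the window, which says only that those letters were not found there.

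Sham lungs already contained transcripts of most members. Per kilobase of exon within a table, as a level, Irf1, the factor that also acts downstream of interferon gamma, stood highest among the members, at the 97.8th percentile of all tested genes in the epithelium and the 98.9th in the mesenchyme. Ifi27 came next in both tables. At the other end stood Oas2, Ifi44 and Trim30a in the epithelium (percentiles 1.13, 1.52 and 1.74) and Ifi44 in the mesenchyme (1.83). Genes were tested with limma where the normalised count reached 10 in 4 or more of a table's 12 libraries. By this filter 37 members were tested in the epithelium and 40 in the mesenchyme. Oas3 and Cxcl9 passed in neither table: Oas3 reached at most 11.03 in an epithelial and 17.1 in a mesenchymal library, and Cxcl9 at most 3.37 and 8.25. In the mesenchyme Cxcl9, a chemokine induced by interferon gamma, was at 0, 2.48, 0 and 0 in sham, 8.25, 7.97, 6.10 and 2.44 in irradiated and 0, 3.60, 0.966 and 1.01 in depleted libraries. Without the filter Cxcl9 was called there in irradiated against sham (limma adjusted p = 0.0407), from levels of a few reads, with irradiated replicate 4 inside the sham range. In the epithelium Oasl1 (at most 8.67), Mx1 (8.49) and Rsad2 (15.0) also failed it.

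Few members were called, and the called ones moved in both directions. In the epithelium, irradiated against sham, 2 of 37 rose (Trim30a, Iigp1) and 1 fell (Samd9l). That was 8.11% of the members, where 3.14% of all 16626 tested genes were called (2.26% higher, 0.878% lower). An unadjusted limma p under 0.05 was found for 10 of the 37. The median log2 change of the 37 was 0.01, beside -0.01 over all genes, and 20 of the 37 lay above 0. In the mesenchyme, 3 of 40 rose (Zbp1, Irf1, Parp14) and 1 fell (Ifit2), where 3.8% of 16624 genes were called (2.64% higher, 1.15% lower). There the members' median was 0.24, beside -0.01 over all genes, and 32 of the 40 lay above 0 where 48.5% of all tested genes did.

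Within irradiated lungs, the antibody against neutrophils was followed by 1 call among the members. In the epithelium none of the 37 members was called in depleted against irradiated by limma, edgeR or DESeq2, and 3 had an unadjusted limma p under 0.05 (Cxcl10, Gbp2, Irf7); 0.475% of all genes were called (0.204% higher, 0.271% lower). In the mesenchyme 1 of 40 was called, Ifit2, which fell, beside 2.69% of all genes (2.02% higher, 0.674% lower). The members' medians were -0.03 and -0.09.

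More members were called when the depleted group was set against sham, and so were more genes in all. In the epithelium 5 of 37 rose (Trim30a, Cxcl10, Bst2, Gbp2, Iigp1) and 2 fell (Samd9l, Ddx58), 18.9% of the members beside 11.3% of all genes (6.52% higher, 4.76% lower). In the mesenchyme 5 of 40 rose (Zbp1, Bst2, Oas2, Stat2, Irf1) and 2 fell (Ifit2, Samd9l), 17.5% of the members beside 15.2% of all genes (8.51% higher, 6.7% lower). The members' median log2 change was -0.08 in the epithelium, where 24 of the 37 lay below 0. In the mesenchyme it was 0.11, and 26 of the 40 lay above 0. Of all tested genes 48.7% and 49.2% lay above 0. The irradiated and depleted groups are set against the same 4 sham libraries in each table, so these counts are not independent of those above. Bst2 and Samd9l were called in the depleted lungs of both compartments.

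**Figure D1:**
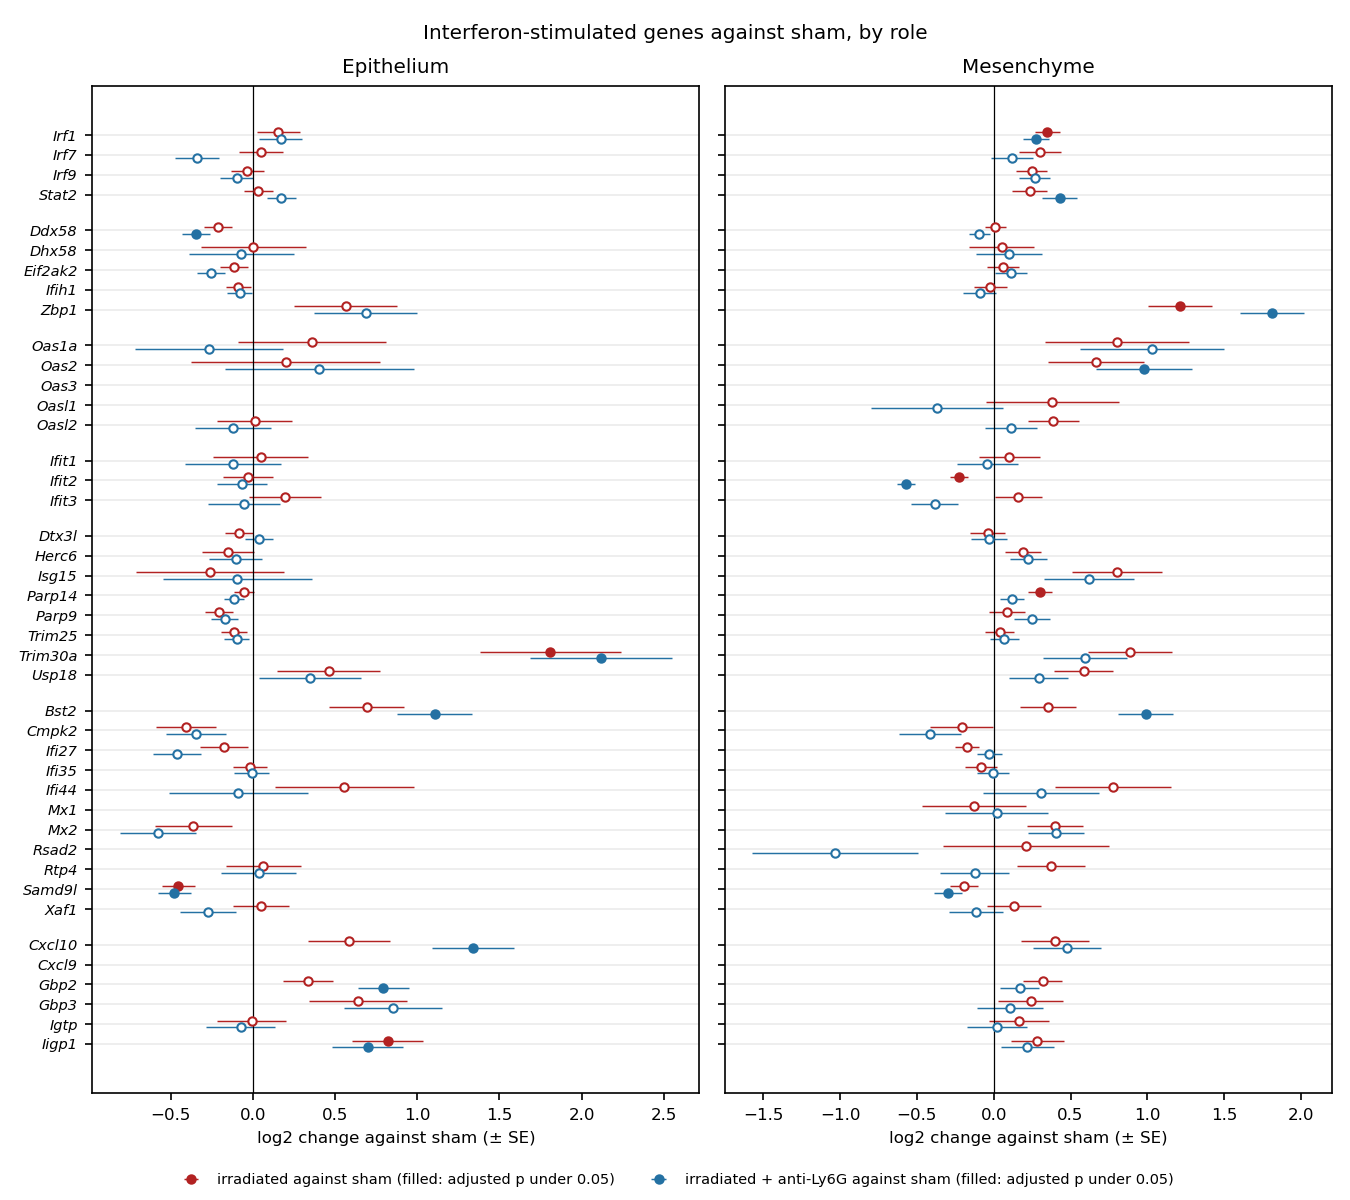
Log2 change against sham (x axis, log2 of normalised count + 1, points with standard error) for each of the 42 members, grouped by role, in epithelium (left) and mesenchyme (right), with irradiated in red, depleted in blue and filled points for adjusted p under 0.05. Most points sit near 0, Trim30a reaches 1.81 and 2.12 in the epithelium, Zbp1 reaches 1.21 and 1.81 in the mesenchyme, and members without points did not pass the filter.

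RNA of other cells differed between the groups. Over 14 leukocyte markers, the mean log2 level per library ran from 3.53 to 5.15 in epithelial sham libraries, from 5.33 to 6.44 in irradiated and from 5.13 to 5.76 in depleted ones. In the mesenchyme it ran from 4.36 to 5.90, 5.95 to 7.08 and 5.57 to 6.69. Irradiated and sham libraries thus did not overlap in this level in either table, and none of the 14 markers was at or under 3 reads in any group. Ptprc, which encodes the sorted-out CD45, spanned 28.1 to 115, 104 to 284 and 108 to 167 in the epithelial groups and 107 to 314, 266 to 563 and 171 to 391 in the mesenchymal ones. Of 13 tested leukocyte markers 4 rose after irradiation in the epithelium (median log2 change 1.48) and 3 in the mesenchyme (1.22), and none was called in depleted against irradiated by limma (medians -0.26 and -0.41).

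The summed level of the 14 leukocyte markers ran from 484 to 1408 over the sham, 1444 to 3179 over the irradiated and 1059 to 2315 over the depleted mesenchymal libraries. In the epithelium the sums were 2910 to 3329, 3200 to 4270 and 2434 to 3417, of which Lcp1 alone made 2808 on average in sham. Macrophage markers summed to 1532 to 2424, 2493 to 5241 and 2183 to 3876 in the mesenchymal groups, with Marco at or under 3 reads in sham and irradiated libraries. Ly6g itself was at most 5.08 in an epithelial and 2.70 in a mesenchymal library, and Siglech, a marker of the plasmacytoid dendritic cells that are strong interferon producers, at most 4.02 and 6.10. Of the 8 markers listed for those cells, Bst2, itself a member, rose in depleted against sham in both tables. Tcf4 fell in the depleted mesenchyme, and the list's medians were -0.15 and -0.01. Of the lymphocyte markers Cd3e alone was called, 1 of 7 tested in the mesenchyme, rising in irradiated and depleted against sham (medians 0.76 and 0.07). Irradiated replicate 2 had the highest leukocyte level of either table (6.44 and 7.08) and was also the library with the highest value for 12 of 37 epithelial and 15 of 40 mesenchymal members. The library numbered 2 had the highest leukocyte level of its group in all 6 groups, a pattern noticed after the values were seen. Markers of other cell types moved as well. Of the neutrophil markers, 4 of 8 tested rose in irradiated and 5 in depleted epithelium against sham (median log2 changes 2.06 and 2.39), and 4 and 6 of 9 in the mesenchyme (1.68 and 2.31). From irradiated to depleted, Csf3r and Cxcr2 fell in the mesenchyme, where the median was 0.37, and no neutrophil marker was called in the epithelium by limma (0.21). The summed neutrophil level ran from 317 to 2203, 319 to 1265 and 1026 to 2507 in the epithelial groups and from 114 to 289, 374 to 789 and 336 to 797 in the mesenchymal ones, with Elane at or under 3 reads in each group. Of 14 endothelial markers 5 rose in irradiated and 3 in depleted epithelium (0.96 and 0.72), and 1 and 2 in the mesenchyme (1.10 and 0.63). Of the macrophage markers, 1 of 9 rose in irradiated epithelium (1.25), 4 rose and 1 fell in depleted epithelium (1.07), and 4 and 6 of 13 rose in the mesenchyme (1.22 and 1.54). The mesenchymal genes Col1a1, Col1a2, Col3a1 and Dcn rose in depleted epithelium, 4 of 9 on that list (0.39), and the epithelial genes Cdh1, Krt8, Krt18 and Scgb1a1 in depleted mesenchyme, 4 of 9 tested (0.87). After irradiation Col1a2 and Col3a1 rose in the epithelium and Krt8 in the mesenchyme. From irradiated to depleted epithelium Col3a1 rose. Markers of the sorted cells fell in depleted against sham: Cdh1, Cldn18, Krt8 and Nkx2-1 in the epithelium, 4 of 10 epithelial genes (-0.16), and Pdgfrb in the mesenchyme, 1 of 9 mesenchymal genes (-0.12). The part of other cells' RNA in the members' changes was not tested. In such bulk libraries fewer cells of a type and less RNA per cell cannot be told apart.

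When the leukocyte level was added to the fit as a covariate, no member was called in irradiated against sham in either table, with adjusted p of 0.569 for Zbp1 and 0.705 for Ifit2 in the mesenchyme. Since sham and irradiated libraries do not overlap in that level, irradiation and leukocyte RNA cannot be told apart by this fit. In the depleted groups against sham, 2 epithelial members (Gbp2, Ifi27) and 4 mesenchymal ones (Zbp1, Bst2, Ifit2, Ifit3) were called with the covariate, of which Ifi27 and Ifit3 were not called without it. Sham replicate 2 alone reached the depleted range of the leukocyte level in each table, so treatment and leukocyte RNA are poorly separated there too. Calls over all genes were not counted in this fit, so a loss among the members cannot be told from a general one. The calls of Gbp2 in the epithelium and of Zbp1, Bst2 and Ifit2 in the mesenchyme held under each of the 22 alternatives run, the covariate included. How much of any member's change came from leukocyte RNA was not tested.

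**Figure D2:**
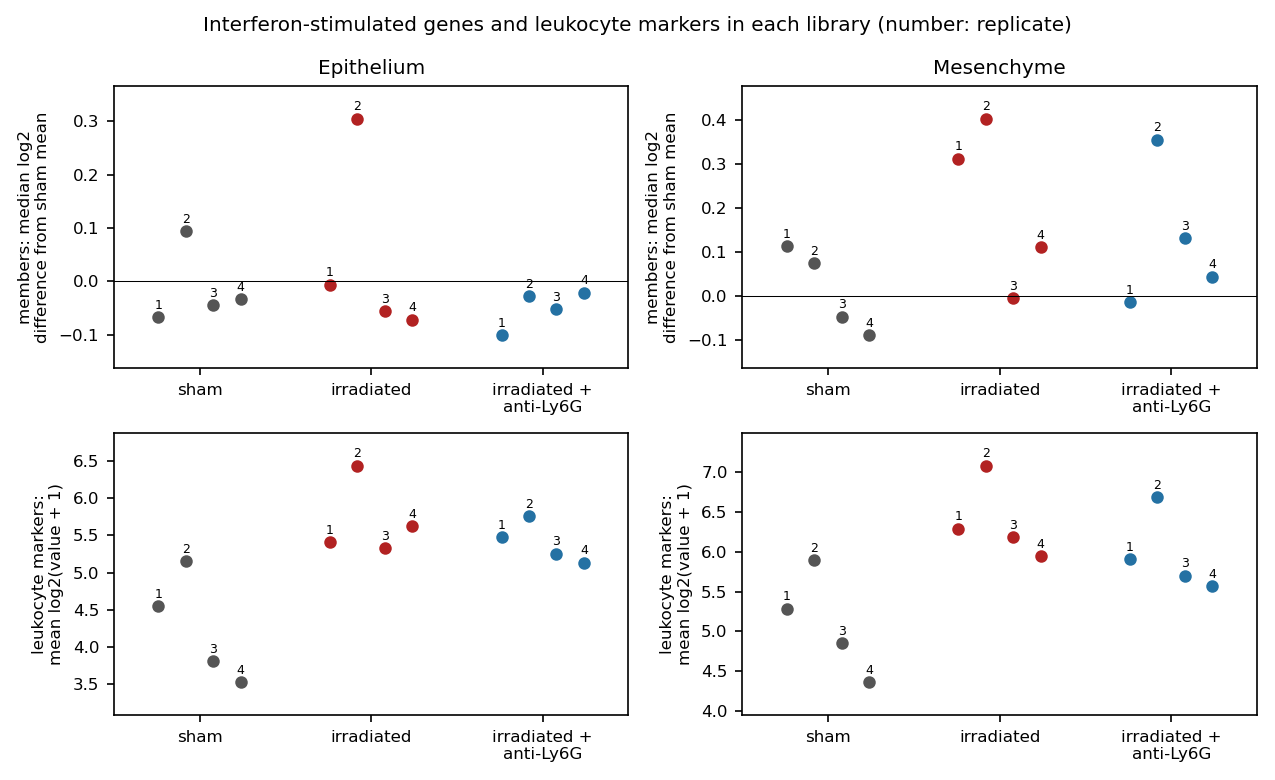
Per library, the members' median log2 difference from the sham mean and the mean log2 level of the leukocyte markers, for the epithelium and the mesenchyme, with groups by colour. Irradiated replicate 2 stands highest on both measures in each table, at leukocyte levels of 6.44 and 7.08 and with member medians of 0.31 and 0.40.

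Among the transcription factors, Irf1 (chr11:53770014-53778374) changed in the mesenchyme. Its sham libraries held 6257, 5995, 5047 and 5313 normalised counts, irradiated ones 6990, 7703, 7343 and 6692, and depleted ones 6974, 7195, 6683 and 6427. Every library of the irradiated and depleted groups exceeded every sham library. The log2 change was 0.35 ± 0.0830 (SE, n = 4 per group, limma adjusted p = 0.0316) after irradiation and 0.27 (adjusted p = 0.0354) in depleted against sham. The irradiation call for Irf1 ended on leaving out sham replicate 3 (adjusted p = 0.122), sham replicate 4 (0.0731), irradiated replicate 2 (0.116) or irradiated replicate 3 (0.0629), and with the groups compared alone (0.0516). In depleted lungs the call ended on leaving out sham replicate 3 (0.132), sham replicate 4 (0.0827), depleted replicate 1 (0.0940) or depleted replicate 2 (0.0974). In the epithelium Irf1 had means of 2978, 3341 and 3362, with overlapping libraries and no call.

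Stat2, the subunit that gives the interferon factor its activation domain, rose in the depleted mesenchyme. The libraries held 512, 462, 428 and 549 in sham, 543, 618, 588 and 540 in irradiated and 601, 799, 531 and 718 in depleted lungs. Depleted replicate 3 lay within the sham range and the other depleted libraries above it. The change of Stat2 was 0.43 ± 0.114 on the log2 scale (limma adjusted p = 0.0195), and the call ended without sham replicate 3 (adjusted p = 0.0691), depleted replicate 2 (0.0595) or depleted replicate 4 (0.0583). After irradiation alone it was 0.23 (adjusted p = 0.255), and in the epithelium 0.03 (adjusted p = 0.920).

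Irf9 and Irf7, the partner of Stat2 and the factor that amplifies interferon transcription, were not called in any comparison. In the mesenchyme Irf9 was at 378, 489, 353 and 371 in sham, 449, 475, 529 and 429 in irradiated and 464, 525, 433 and 480 in depleted libraries. Sham replicate 2 alone lay inside the range of the other groups, and without it Irf9 was called after irradiation (limma adjusted p = 0.0288, from 0.173) and in depleted against sham (0.0119, from 0.0895). Library weights gave the latter call too (0.0447). Irf7 changed by 0.30 (adjusted p = 0.222) after irradiation in the mesenchyme. In the epithelium Irf7 was at 80.3 to 105 in the irradiated and 61.0 to 86.9 in the depleted libraries, a log2 difference of -0.39 (adjusted p = 0.215), and Irf9 moved by -0.03 and -0.07 in the same fits.

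Zbp1, which binds nucleic acid in the Z conformation and can start necroptosis, had the largest rise among the mesenchymal members. The gene lies at chr2:173206612-173218923 on the minus strand (ENSMUSG00000027514). Its sham libraries held 26.4, 37.2, 16.2 and 25.8 normalised counts, irradiated ones 59.8, 72.8, 58.0 and 51.2, and depleted ones 88.1, 107, 90.8 and 81.6. The 3 groups were fully separate, with the depleted libraries highest. Zbp1 rose by 1.21 ± 0.209 on the log2 scale after irradiation, 2.32-fold (limma adjusted p = 0.00499), and by 1.81 in depleted against sham, 3.51-fold (adjusted p = 3.82e-05). The step from irradiated to depleted was 0.60 (adjusted p = 0.140). With the leukocyte level as a covariate that step reached an adjusted p of 0.0487, where the leukocyte markers themselves had a median change of -0.41. In the epithelium Zbp1 was low, at 8.04 to 15.9, 12.1 to 28.4 and 15.3 to 26.3 in the 3 groups, with a change of 0.56 (adjusted p = 0.451) after irradiation.

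The RIG-I family sensors moved little. Ddx58, which encodes the RNA sensor RIG-I, fell in the depleted epithelium. It was at 527, 580, 503 and 519 in sham, 522, 457, 449 and 411 in irradiated and 399, 430, 480 and 373 in depleted libraries. All depleted libraries lay below all sham libraries, and the irradiated ones overlapped both. The change in depleted against sham was -0.34 ± 0.0847 (limma adjusted p = 0.0139), and after irradiation -0.21 (adjusted p = 0.222). Ifih1 and Dhx58 were not called in either table by limma or under any alternative. Eif2ak2, which encodes the RNA-activated kinase PKR, was not called by limma (-0.25, adjusted p = 0.0653 in depleted against sham epithelium), but was with library weights (0.0283) and without depleted replicate 4 (0.0393).

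Within the Oas family, whose enzymes make the second messenger of RNase L, only Oas2 was called, and only in depleted against sham in the mesenchyme. Sham libraries had 10.1, 23.996, 18.2 and 12.5, irradiated ones 23.7, 42.1, 24.4 and 15.9, and depleted ones 33.8, 41.4, 28.0 and 24.2. The lowest depleted library was barely above the highest sham library. The log2 change of Oas2 was 0.98 ± 0.311 (limma adjusted p = 0.0449), and the call ended on leaving out any of sham replicates 1, 3 and 4, irradiated replicates 1 and 3 and depleted replicates 1, 2 and 3 (adjusted p of 0.0507 to 0.128), with edgeR (0.0529) and without a filter (0.0550). Oas1a, one of several closely similar copies among which the authors' counting may have split reads, was at 2.02 to 10.8, 6.10 to 25.0 and 9.66 to 17.4 in the mesenchymal groups (0.80 after irradiation, adjusted p = 0.354). In the epithelium it was at 6.83 to 18.7, 5.87 to 33.1 and 5.08 to 10.1, and Oasl1 in the mesenchyme at 4.99 to 11.6, 6.10 to 15.9 and 3.87 to 9.07.

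The Ifit genes, which encode proteins that hold back viral RNA, lie near each other on chromosome 19, and of the 3 members only Ifit2 was called. Ifit2 (chr19:34550694-34576419) stepped down in the mesenchyme through all 3 groups. It was at 506, 506, 497 and 501 in sham, 419, 436, 428 and 434 in irradiated and 348, 319, 350 and 334 in depleted libraries. No library of one group fell within the range of another, and the libraries of each group lay close together. Ifit2 fell by 0.23 on the log2 scale after irradiation (SE 0.0602, limma adjusted p = 0.0478), by a further 0.35 from irradiated to depleted (adjusted p = 0.00532) and by 0.57 from sham to depleted (adjusted p = 1.61e-05). The latter pair of calls held under all 22 alternatives. The first ended when any library other than depleted replicate 4 was left out (adjusted p of 0.0518 to 0.118), without a filter (0.152), with the groups compared alone (0.0696) and with the replicate number as a block (0.0674). In the epithelium Ifit2 moved by -0.03 after irradiation, and the difference between the compartments was 0.20 ± 0.156 (adjusted p = 0.624).

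Ifit3, next to it at chr19:34583531-34588731 and with a near copy in the mouse genome, was at 180, 165, 144 and 146 in mesenchymal sham, 167, 199, 182 and 161 in irradiated and 100, 164, 135 and 95.7 in depleted libraries. Depleted replicate 2 overlapped the irradiated range and the other depleted libraries lay below it. The change from irradiated to depleted was -0.54 ± 0.151 (limma adjusted p = 0.0674), and without depleted replicate 2 or 3 Ifit3 was called (0.0161 and 0.0481), as it was with DESeq2 (0.0417). Ifit1 is the remaining Ifit gene among the members, and its promoter window held 2 ISRE cores, as did that of Ifit3. In the mesenchymal groups Ifit1 was at 32.4 to 48.7, 33.6 to 56.9 and 32.8 to 45.0. Its change after irradiation was 0.10 (adjusted p = 0.823), and in the epithelium 0.05 (adjusted p = 0.972).

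**Figure D3:**
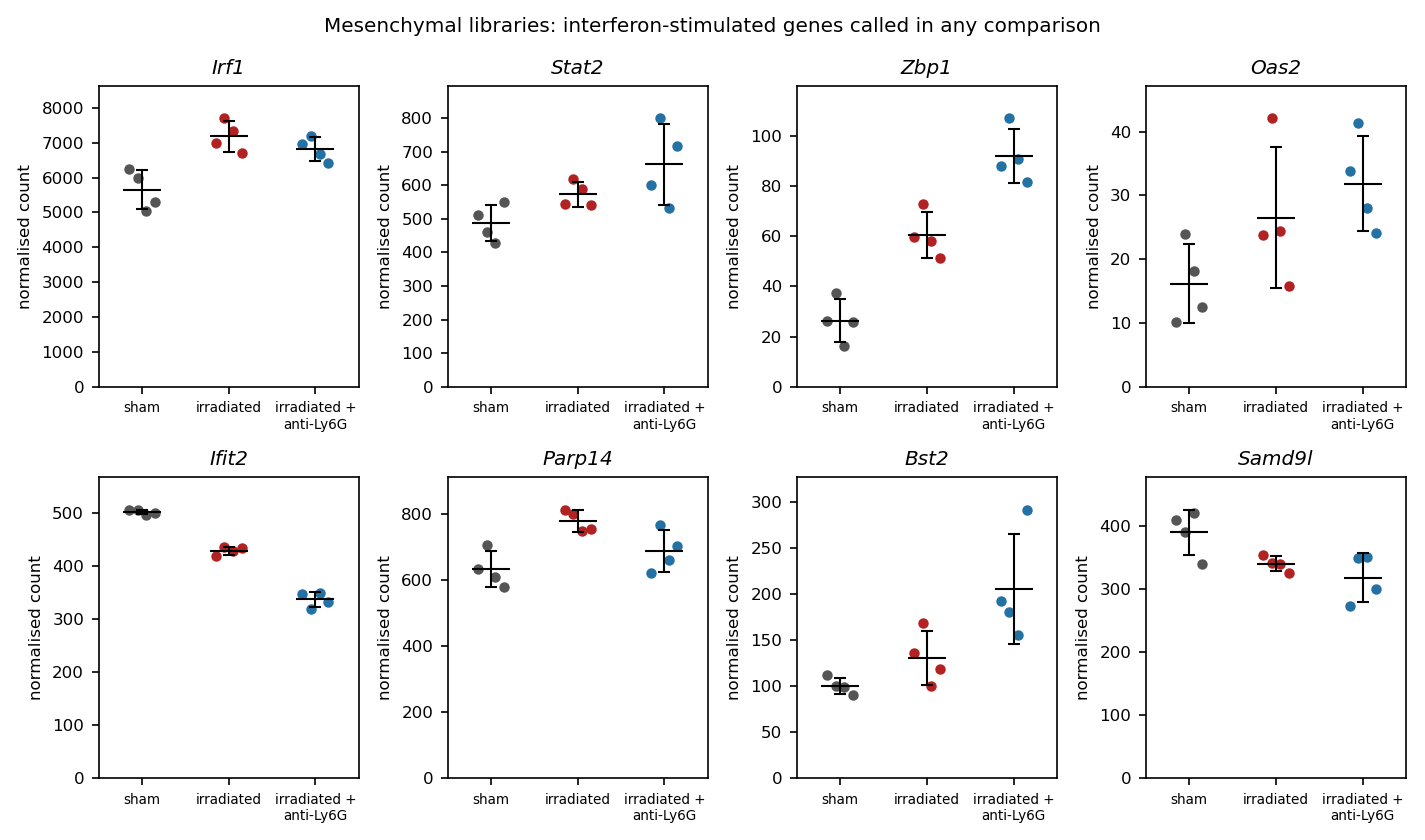
Normalised counts of each called member in the 12 mesenchymal libraries (1 point each, bars for mean ± SD, n = 4 per group), on linear axes from 0. Ifit2 steps down through 3 groups that do not overlap, Zbp1 steps up in the same way, and Parp14 lies above all sham libraries in the irradiated group.

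Parp14, an ADP-ribosyltransferase, was called in the mesenchyme after irradiation. The libraries held 635, 707, 611 and 578 in sham, 813, 800, 748 and 754 in irradiated and 620, 767, 662 and 702 in depleted lungs. Irradiated libraries lay above all sham libraries, while depleted ones overlapped both groups. The change was 0.30 ± 0.0784 (limma adjusted p = 0.0450) after irradiation, -0.18 (adjusted p = 0.231) from irradiated to depleted and 0.12 (adjusted p = 0.333) against sham. The irradiation call for Parp14 ended without any one of the irradiated replicates 1 to 4 or of the sham replicates 1, 3 and 4 (0.0605 to 0.133), and without a filter (0.0670). In the epithelium the change was in the other direction and not called, and the difference between the compartments was -0.36 ± 0.0968 (adjusted p = 0.0806).

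Trim30a, a ubiquitin ligase gene of a family with several similar copies, had the largest change of any member in the epithelium, from a very low level. Sham libraries held 8.78, 6.37, 11.6 and 1.04 normalised counts, irradiated ones 19.6, 30.7, 21.0 and 18.5, and depleted ones 25.8, 34.3, 21.4 and 29.9. All irradiated and depleted libraries exceeded all sham libraries, of which replicate 4 lay under the limit of 3 reads. Of the sham libraries only replicate 3 reached the level set by the filter, so Trim30a passed it through its irradiated and depleted libraries. Separation from sham is therefore partly built into its being tested. Trim30a rose by 1.81 ± 0.431 after irradiation (limma adjusted p = 0.0295) and by 2.12 (adjusted p = 0.00469) in depleted against sham. With a pseudocount of 8 in place of 1 the first value was 1.07. Without a filter both comparisons still called Trim30a. The irradiation call ended without sham replicate 2 (0.0576), irradiated replicate 2 (0.118), irradiated replicate 3 (0.05003) or irradiated replicate 4 (0.0624), and with the groups compared alone (0.0692). In the mesenchyme Trim30a was at 51.7, 56.3, 25.2 and 22.5 in sham, 69.1, 66.0, 64.1 and 69.5 in irradiated and 40.0, 75.6, 49.3 and 60.5 in depleted libraries. Irradiated libraries were above sham ones there too, by 0.88 (adjusted p = 0.0814), and without sham replicate 2 this was called (0.0246).

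Isg15, the ubiquitin-like modifier, and Usp18, the protease that removes it and also blocks the type I receptor, were not called in any comparison. Mesenchymal Isg15 was at 19.3, 23.2, 13.1 and 16.6 in sham, 43.3, 28.5, 38.7 and 20.7 in irradiated and 17.4, 44.1, 26.1 and 29.2 in depleted libraries. Irradiated replicate 4 and depleted replicate 1 lay within the sham range and the others above it, and the change after irradiation was 0.80 ± 0.294 (limma adjusted p = 0.131). Mesenchymal Usp18 was at 26.6 to 34.5 in sham and 35.6 to 62.6 in irradiated libraries, which did not overlap (0.58, adjusted p = 0.0937). In the epithelium Isg15 stayed between 4.02 and 15.0 in all libraries, and Usp18 between 10.4 and 45.7.

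Bst2, which encodes tetherin, a membrane protein that holds budding virus to the cell and is made by many cell types, rose in the depleted lungs of both compartments. Epithelial libraries held 37.1, 47.7, 36.6 and 38.5 in sham, 60.7, 88.2, 52.6 and 62.7 in irradiated and 78.6, 59.7, 81.3 and 148 in depleted lungs. All irradiated and depleted libraries lay above all sham libraries. The change of Bst2 was 1.11 ± 0.228 in depleted against sham (limma adjusted p = 0.00482) and 0.69 after irradiation (adjusted p = 0.120), the latter being called without depleted replicate 4 (0.0376) and with library weights (0.0392). With the leukocyte covariate the call in depleted epithelium ended (adjusted p = 0.183).

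In the mesenchyme Bst2 was at 112, 100, 98.9 and 90.6 in sham, 136, 168, 99.7 and 118 in irradiated and 193, 181, 156 and 291 in depleted libraries. Depleted libraries stood above sham in every case, with replicate 4 highest, as in the epithelium. The log2 change of Bst2 against sham was 0.99 ± 0.181 (limma adjusted p = 0.00215). Against irradiated it was 0.63 ± 0.181 (adjusted p = 0.0801), called without irradiated replicate 2 (0.0439) or depleted replicate 3 (0.0312) and with DESeq2 (0.0305).

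Samd9l, a gene for a restriction factor of poxviruses, fell in comparisons where most other called members rose. Epithelial libraries held 434, 468, 480 and 570 in sham, 395, 392, 315 and 322 in irradiated and 322, 332, 406 and 340 in depleted lungs. All irradiated and depleted libraries lay below all sham libraries. Samd9l fell by 0.45 on the log2 scale after irradiation (SE 0.100, limma adjusted p = 0.0176) and by 0.48 in depleted against sham (adjusted p = 0.00523). The irradiation call ended without sham replicate 3 (0.0512), sham replicate 4 (0.0693) or irradiated replicate 4 (0.0690). In the mesenchyme Samd9l was at 409, 391, 420 and 339 in sham, 354, 340, 340 and 324 in irradiated and 273, 348, 351 and 299 in depleted libraries, where sham replicate 4 overlapped the other groups. The change in depleted against sham was -0.30 ± 0.0920 (adjusted p = 0.0401) and ended on leaving out any of sham replicates 1 to 3, irradiated replicates 2 and 3 and depleted replicates 1 and 4 (0.0503 to 0.135), without a filter (0.0732) and with the groups compared alone (0.0663).

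Several of the best-known antiviral effectors were near the detection limit or did not pass the test. Mx1 was at 8.14 to 22.5 over all mesenchymal libraries (-0.13 after irradiation, limma adjusted p = 0.870). Rsad2, which encodes viperin, was at 7.48 to 19.9, 7.12 to 22.7 and 1.93 to 14.1 in the mesenchymal groups, and its log2 difference of -1.24 ± 0.539 from irradiated to depleted was the largest of any member there but missed the threshold (adjusted p = 0.237). Ifi44 was at 5.82 to 14.9, 10.2 to 27.3 and 7.73 to 19.8 in the mesenchyme, and at 5.85 to 13.4, 7.28 to 28.4 and 5.61 to 12.4 in the epithelium. Rtp4, a chaperone gene for transmembrane receptors, changed by 0.37 and then by -0.50 in the mesenchyme (adjusted p = 0.368 and 0.255). Epithelial Xaf1, which encodes an antagonist of the apoptosis inhibitor XIAP, was at 37.2 to 52.8 in irradiated and 31.8 to 40.4 in depleted libraries (-0.33, adjusted p = 0.467).

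Of the 5 tested GTPase and chemokine members, which also answer to interferon gamma, 3 rose in the depleted epithelium against sham, where 6.52% of all genes rose. Cxcl10, the chemokine that draws T cells bearing Cxcr3, was at 12.7, 10.6, 8.04 and 14.6 in sham, 20.6, 22.1, 14.6 and 13.7 in irradiated and 31.4, 30.5, 26.0 and 32.3 in depleted libraries. The depleted libraries lay above all others, and irradiated replicates 3 and 4 lay within the sham range. The change of Cxcl10 was 1.34 ± 0.250 in depleted against sham, 2.53-fold (limma adjusted p = 0.00230). The steps were 0.59 (adjusted p = 0.275) from sham to irradiated and 0.75 (adjusted p = 0.199) from irradiated to depleted. In the mesenchyme Cxcl10 was at 109 to 222, 162 to 264 and 188 to 303, with no call.

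Gbp2, a guanylate-binding protein gene, also rose in the depleted epithelium. The libraries held 76.1, 73.2, 92.0 and 93.7 in sham, 103, 117, 80.1 and 127 in irradiated and 118, 132, 173 and 164 in depleted lungs. Depleted libraries were above all sham libraries and overlapped the irradiated ones. Gbp2 rose by 0.79 ± 0.155 in depleted against sham (limma adjusted p = 0.00309), and this call held under all 22 alternatives. From irradiated to depleted the change was 0.46 (adjusted p = 0.206), and the difference between the compartments in that change was 0.60 ± 0.211 (adjusted p = 0.246). Epithelial Gbp3 was at 17.7 to 26.5, 21.8 to 56.7 and 26.9 to 62.2, with 0.64 (adjusted p = 0.339) after irradiation and 0.85 (adjusted p = 0.0754) in depleted against sham.

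Iigp1, an immunity-related GTPase gene that acts on the vacuoles of intracellular parasites and has close relatives in the genome, was at 32.2, 54.1, 51.8 and 46.8 in epithelial sham, 81.2, 124, 72.8 and 57.9 in irradiated and 87.5, 78.8, 76.7 and 57.4 in depleted libraries. All treated libraries were above all sham libraries. Iigp1 rose by 0.82 ± 0.217 after irradiation (limma adjusted p = 0.0483) and by 0.70 in depleted against sham (adjusted p = 0.0464), both close to the threshold. The first call ended when any one library was left out other than irradiated replicate 4 and depleted replicate 4 (adjusted p of 0.0546 to 0.199), and the second on leaving out any library but irradiated replicates 2 and 4 and depleted replicate 4 (0.0501 to 0.129). The first also ended with a mean filter of 50 (0.0501) and with the groups alone (0.0779), and the second with edgeR (0.0688), library weights (0.0507) and no filter (0.0509). Igtp, another GTPase gene of the same kind, was not called.

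**Figure D4:**
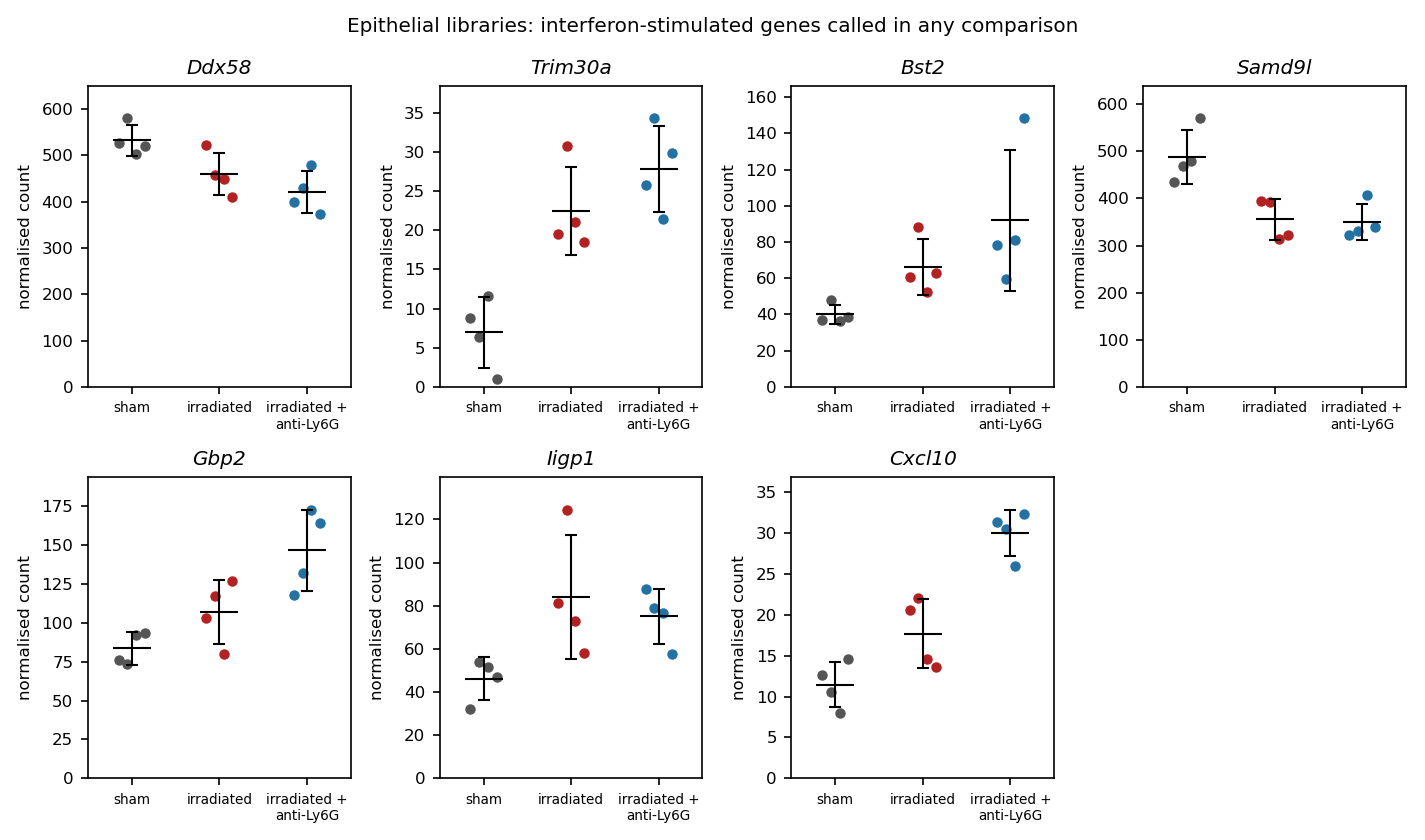
Normalised counts of each called member in the 12 epithelial libraries (1 point each, bars for mean ± SD, n = 4 per group), on linear axes from 0. The depleted libraries of Cxcl10 and Gbp2 lie above all sham libraries, while Samd9l lies below them in both irradiated groups.

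The members not given by value above, 19 in the epithelium and 18 in the mesenchyme, had no change that passed the test by limma. Their log2 changes ran from -0.41 to 0.20 after irradiation in the epithelium and from -0.21 to 0.40 in the mesenchyme. In depleted against irradiated they ran from -0.28 to 0.21 and from -0.28 to 0.17, and in depleted against sham from -0.58 to 0.41 and from -0.42 to 0.40. The lowest adjusted p was 0.0637 in the epithelium and 0.154 in the mesenchyme, both in depleted against sham. The former is that of Ifi27, a gene for a mitochondrial protein, at 449, 474, 390 and 401 in sham, 382, 538, 328 and 303 in irradiated and 276, 319, 304 and 346 in depleted epithelium. All depleted libraries of Ifi27 lay below all sham libraries (-0.46 ± 0.147). It was called with DESeq2 (0.0244), with the groups compared alone (0.00328), with the replicate block (0.0301), with the leukocyte covariate (0.0305), and without irradiated replicate 2 (0.00395) or 4 (0.0365). Ifi27 is named here because of these calls, after its values were seen.

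Transcripts of the interferons themselves were hardly detected. Of 10 ligand genes 9 stayed at or under the level of 3 reads in every library, among them Ifnb1 (at most 1.01 normalised counts) and Ifng (at most 1.58). The exception was Ifnk, the interferon of keratinocytes, at 12.1 to 31.3 over the epithelial libraries and at most 8.11 in the mesenchyme. Ifnk was not called in the epithelium.

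Of the 9 receptor and kinase genes, all tested in both tables, none was called in irradiated against sham or in depleted against irradiated. In depleted against sham 3 of the 9 rose in the mesenchyme, where 8.51% of all genes rose, and none in the epithelium by limma, where 6.52% did. These were Ifnar2, a chain of the type I receptor (0.35, limma adjusted p = 0.0250), Il10rb, the chain shared by the type III and IL-10 receptors (0.31, adjusted p = 0.0279), and Ifnlr1, the specific type III chain (1.11, adjusted p = 0.0267). Ifnlr1 was low there, at 7.07 to 15.2 in the sham and 18.1 to 33.3 in the depleted libraries. Each of these calls ended on leaving out certain single libraries: for Ifnar2 sham replicates 1 and 3 and depleted replicates 3 and 4 (adjusted p of 0.0553 to 0.0802), for Ifnlr1 sham replicates 3 and 4 and depleted replicates 1 and 2 (0.0545 to 0.0908), and for Il10rb sham replicates 1, 3 and 4 and depleted replicates 1 and 4 (0.0510 to 0.0868). With the leukocyte covariate the calls of Ifnlr1 (0.141) and Il10rb (0.0925) ended, as did that of Il10rb without a filter (0.0609).

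Among the genes that lead to interferon production, Tmem173 stood out in the mesenchyme. It encodes STING, the adaptor that passes the signal of cytosolic DNA to the kinase Tbk1. Its sham libraries held 145, 165, 145 and 157 normalised counts, irradiated ones 214, 187, 182 and 144, and depleted ones 244, 271, 226 and 308. The depleted libraries lay above all others, and irradiated replicate 4 was no higher than the sham libraries. Tmem173 rose by 0.53 ± 0.122 from irradiated to depleted (limma adjusted p = 0.0285) and by 0.76 from sham to depleted (adjusted p = 0.000623), and the latter held under all 22 alternatives. The former ended on leaving out any of irradiated replicates 2 to 4 and depleted replicates 1, 2 and 4 (0.0523 to 0.105), and with the groups compared alone (0.0646). In the epithelium the corresponding changes were 0.34 (adjusted p = 0.186) and 0.32 (adjusted p = 0.0739).

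In depleted against sham, 4 of 13 tested inducers rose in the mesenchyme, where 8.51% of all genes did: beside Tmem173 these were the kinases Ikbke (0.49, limma adjusted p = 0.00297) and Tbk1 (0.28, adjusted p = 0.0121) and the Toll-like receptor adaptor Myd88 (0.33, adjusted p = 0.0409). The call for Myd88 ended on leaving out any of sham replicates 1, 3 and 4, irradiated replicate 2 and depleted replicates 1, 2 and 4 (0.0524 to 0.120), with the replicate block (0.0623) and with the leukocyte covariate (0.221), and those for Ikbke and Tbk1 ended only with the leukocyte covariate (0.0511 and 0.0749). None of 12 tested inducers was called in the epithelium by limma. Of 8 genes that restrain the pathway, 3 rose in the depleted mesenchyme against sham (8.51% of all genes): the phosphatase Ptpn2 (0.63, adjusted p = 0.0147), the nucleotide hydrolase Samhd1 (0.46, adjusted p = 0.00850) and the Jak inhibitor Socs3 (0.42, adjusted p = 0.0125). These calls ended with the leukocyte covariate (0.0700, 0.0857 and 0.0990), and that of Ptpn2 also without sham replicate 3 (0.0501). Ptpn2 (0.31, adjusted p = 0.0493) and Socs3 (0.63, adjusted p = 0.0483) also rose in the depleted epithelium, where 6.52% of all genes rose. There Ptpn2 lost its call on leaving out any of sham replicates 1 to 3, irradiated replicates 1 and 2 and depleted replicates 1, 2 and 4 (0.0530 to 0.140), and Socs3 on leaving out any sham replicate or depleted replicate 1, 2 or 4 (0.0778 to 0.123). Both calls also ended without a filter (0.0762 and 0.0961) and with the leukocyte covariate (0.352 and 0.567), and that of Ptpn2 with edgeR (0.0590) and DESeq2 (0.0556).

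The responses of the compartments were set against each other over the 15092 genes tested in both tables, of which 37 are members. For irradiated against sham no member differed by limma, 2 had an unadjusted p under 0.05 (Parp14 and Mx2), and 0.629% of all genes were called. Without mesenchymal sham replicate 2 Parp14 was called. The median of the 37 differences, epithelium minus mesenchyme, was -0.18 beside 0.02 over all genes, and 28 of the 37 lay below 0 where 54.0% of all genes lay above it. For depleted against irradiated no member differed by limma, 3 had an unadjusted p under 0.05 (Gbp2, Cxcl10 and Ifi27), and 0.596% of all genes were called. Zbp1, with the largest change in the mesenchyme, differed by -0.65 ± 0.372 (adjusted p = 0.473) between the compartments after irradiation, and Trim30a by 0.93 ± 0.552 (adjusted p = 0.495). No count test was run on these differences.

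The counting strand is not given in the sources used here, so reads of overlapping genes may be shared. The exons of Cxcl10 overlap Art3, those of Irf1, Parp14 and Gbp2 overlap predicted or small RNA genes, those of Irf7 overlap Phrf1, those of Irf9 overlap Rnf31, and Dtx3l and Parp9 overlap each other. No exon of Zbp1, Ifit2, Bst2, Samd9l, Stat2, Ddx58, Trim30a or Oas2 overlapped an exon of another annotated gene.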

How the data were processed

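RNA of sorted epithelial and mesenchymal lung cells was sequenced after removal of ribosomal RNA, per the labels' protocols. The authors deposited, per compartment, a table of normalised counts, a signal equal to gene counts divided by a size factor of each library. The submitters' processing notes name cutadapt 1.5, STAR 2.2.2a, SAMtools 1.8, RSEM 1.3.0, DESeq2 and the build GRCm38, without role or order. Symbols and positions came from GENCODE M21 (GRCm38), which named 48435 of 48795 identifiers. Every positive value was a whole multiple of a step per library (tolerance 0.001), so whole reads were recovered for 100% of values. In mesenchymal sham replicate 3 and depleted replicate 4 that step is close to 1, so there the check says little.

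Log2(value + 1) was fitted with limma 3.58.1 (limma-trend with robust moderation, R 4.3.3) on the 12 libraries of a table, each group having its own mean. Genes needed a value of 10 or more in 4 libraries, and a gene was called at a Benjamini-Hochberg adjusted p under 0.05 over all tested genes. The difference between compartments was fitted on all 24 libraries as independent samples, although both compartments may come from the same mice. Errors of changes are standard errors, n is 4 per group, and p-values measure the spread between these libraries. Count tests on recovered reads were run as alternatives: edgeR 4.0.16 called 558, 92 and 1791 epithelial genes (irradiated against sham, depleted against irradiated, depleted against sham) and 582, 424 and 2559 mesenchymal genes, where limma called 522, 79, 1876, 631, 448 and 2528. DESeq2 1.42.0 called 816, 288, 1917, 1055, 792 and 2729.

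Other alternatives were pseudocounts of 0.5 and 8, other filters, the groups of a comparison alone, library weights, the replicate number as a block, the leukocyte level as a covariate, and leaving out each library. The limma fit was also run on simulated data. Its recovery of known changes is not given here, so a member not called is not shown to be unchanged. The members and lists were chosen with earlier results of these data known. Members named with values were those called anywhere, the 8 largest changes per table for irradiated against sham and for depleted against irradiated, and Stat2, Irf7, Irf9, Isg15, Ifit1, Mx1, Oas1a and Cxcl10. Of the ligand, receptor, inducer and restraint lists, called genes were named. One gene of the receptor list is not reported here. Promoter sequences are from RefSeq (GRCm38.p6).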

Additional observations from a re-analysis of the deposited data

Results flagged for a closer look

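Among 120 groups of 4 libraries checked for the named members, 4 held a library whose gap to its nearest neighbour took up more of the group's range than Dixon's 95% critical value allows. Chance flags about 1 group in 20. Bst2 in epithelial sham replicate 2 was at 47.7, where the other sham libraries were at 36.6 to 38.5. Stat2 in epithelial irradiated replicate 2 was at 378, where the others were at 299 to 312. Zbp1 in the same library was at 28.4, where the others were at 12.1 to 14.7. Zbp1 in epithelial depleted replicate 4 was at 26.3, where the others were at 15.3 to 15.8. Bst2, at 148, was also highest in that library among the depleted epithelial libraries. Irradiated replicate 2 is the epithelial library with the highest leukocyte level (6.44), and sham replicate 2 is the highest of the sham libraries in that level (5.15). The part of leukocyte RNA in these values was not tested.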

How the results depend on the processing

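Of the 22 alternatives run per comparison, the counts of called members moved by over 1.5 times under these. In irradiated against sham the epithelial count of 3 became 1 with a mean filter of 50, 1 with the groups compared alone and 0 with the leukocyte covariate, and the mesenchymal count of 4 became 2 with the groups alone and 0 with the covariate. In depleted against irradiated the mesenchymal count of 1 became 3 with DESeq2 (Bst2, Ifit2, Ifit3), 2 with the replicate block and 2 with the covariate. In depleted against sham the covariate gave 2 in place of 7 in the epithelium and 4 in place of 7 in the mesenchyme. Calls over all genes were not counted with the covariate. Leaving out single libraries gave 1 to 4, 0 and 6 to 8 members in the epithelium (irradiated against sham, depleted against irradiated, depleted against sham), and 1 to 5, 1 to 3 and 3 to 7 in the mesenchyme. Without mesenchymal sham replicate 2 the difference between compartments after irradiation had 1 member, Parp14, in place of 0 (range 0 to 1). Filters, pseudocounts, edgeR, library weights and the block kept every other count within 1.5 times.

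Same-numbered libraries of different groups correlated between -0.11 and 0.15 in the epithelium and between -0.05 and 0.17 in the mesenchyme, so the numbers were not taken to pair the samples. Epithelial and mesenchymal libraries of the same group and number correlated between -0.04 and 0.25, and whether they come from the same mouse is not given in the sources used here. With that number as a block across compartments (correlation 0.0895), 0 members differed between compartments by limma in either comparison, as without it. With the replicate block, Ifit3 was called in depleted against irradiated mesenchyme (adjusted p = 0.0378) and the call of Ifit2 after irradiation was lost (0.0674), leaving 3 members. No called value changed its sign under any alternative. Among the values of single named genes under alternatives, 2582 kept their side of the threshold, 161 lost a call, 16 gained one, and 73 changed sign without a call in either fit. Members that failed the filter, such as Oas3, Cxcl9 and epithelial Mx1, were tested only without it, and of these Cxcl9 was called, in irradiated against sham mesenchyme. The cause of these moves was not tested.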
